A study of Mus musculus with 6 samples.

Results

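Markers of macrophages and monocytes were followed in mouse thoracic aorta on 6 Illumina bead arrays. Of the 10 marker genes chosen, 8 had a probe under their symbol in the platform annotation, out of 19053 genes named there, and these 8 had 17 probes out of 45281. They are the lysozymes Lyz1 and Lyz2, the receptors Csf1r and Adgre1, and the resident markers Mrc1, Cd163, Folr2 and F13a1. No probe was listed under Cd68, a lysosomal glycoprotein of macrophages, or under Ly6c2, a surface protein of inflammatory monocytes, so both were not analysed here.

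The study compared 3 Ndst1_SMKO samples (SM22αCre+Ndst-/-, called mutant below) with 3 WT samples (SM22αCre-Ndstwt/wt), all from male C57Bl/6 mice aged 3 to 4 months, and the labels give no treatment. Ndst1, an enzyme that places sulfate on heparan sulfate chains, is deleted by Cre under the SM22α promoter, which is active in smooth muscle and, in the embryo, in heart muscle. WT mice carried no Cre, so Cre and the Ndst1 deletion cannot be told apart, and Ndst1 itself was not analysed here. No label tells if each sample is a mouse of its own, so the tests below weigh only sample-to-sample spread, which may be technical.

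Macrophages of the healthy artery live mostly in the adventitia, the outer coat of the wall. Their survival depends on CSF1 acting through its receptor, encoded by Csf1r, and the resident cells take up proteins and debris through endocytic receptors such as those encoded by Mrc1 and Cd163. Monocytes arrive from the blood through the chemokine receptor CCR2 and can become macrophages in the wall. In whole tissue, fewer cells of a type and less RNA per cell cannot be told apart.

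Smooth muscle genes marked the tissue on all arrays, with Acta2, smooth muscle actin, at 15.16 in mutant and 15.14 in WT on the log2 scale. Each array had a median non-normalized intensity between 130.0 and 141.5, with 17549 to 18619 probes detected. Of the 17954 probes tested, 1336 passed an adjusted p of 0.05, or 7.44%, with 776 higher in mutant (4.32%) and 560 lower (3.12%). Levels below are log2 intensities after background correction and quantile normalization, and differences are mutant minus WT on that scale, with limma's standard error and n = 3 arrays per genotype. Other Acta2 probes were less level, from -0.63 to 0.35, and ILMN_2710354 passed (0.35 ± 0.08, limma adjusted p = 0.0427). Of 10 tested smooth muscle genes, each by its brightest probe, none rose and 1 fell, Lmod1 (-0.31, limma adjusted p = 0.0472).

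Lysozyme breaks down bacterial cell walls, and mice carry a pair of neighbouring genes for it on chromosome 10. Lyz2 is the form typical of macrophages and neutrophils, and Lyz1 is best known from Paneth cells of the gut. Their promoters are shown because the genes are close relatives and probes named for them disagreed here, within Lyz1 more than between the brightest probes of each gene. Each line holds the 250 bases before the annotated start, on the minus strand of GRCm38.p6, from RefSeq, and capitals mark the longest run of identical bases at matching positions.
Lyz1 (chr10:117292869-117293118): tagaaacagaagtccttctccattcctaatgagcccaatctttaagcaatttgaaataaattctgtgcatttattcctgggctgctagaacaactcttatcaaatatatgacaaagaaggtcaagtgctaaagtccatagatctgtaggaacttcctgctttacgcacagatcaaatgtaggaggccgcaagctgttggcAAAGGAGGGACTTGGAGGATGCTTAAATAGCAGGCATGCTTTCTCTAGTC
Lyz2 (chr10:117282273-117282522): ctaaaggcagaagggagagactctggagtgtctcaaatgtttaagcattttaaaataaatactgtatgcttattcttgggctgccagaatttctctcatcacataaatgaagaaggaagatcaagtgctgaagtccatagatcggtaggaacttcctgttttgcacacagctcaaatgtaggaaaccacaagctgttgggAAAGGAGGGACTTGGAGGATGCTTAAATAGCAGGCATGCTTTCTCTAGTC
The run covers the 50 bases next to the start, and 92 of the last 100 positions are identical when compared without gaps. Farther out the windows differ, with 60 of the first 150 positions identical (40.0%) and 152 of all 250 (60.8%). Within the letters AGGAAG lies GGAA, the core that the myeloid factor PU.1 and other ETS factors bind. The letters AGGAAG occur once on the reverse strand of the Lyz1 window, and once on each strand of the Lyz2 window. Searched on both strands, 29.5% of 32851 promoter windows of this length hold them. Close relatives can also share array signal, and no probe sequence was used here to tell how far each probe reads both.

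Probes of Lyz1 were the only member probes that passed the threshold. Of the 15 probes kept, 2 were higher in mutant and none was lower, against 4.32% and 3.12% of all probes. Both are listed under Lyz1 and may read the same transcript, so they do not count as separate genes. At an unadjusted limma p under 0.05, 2 were higher and 1, Cd163, was lower. Such p-values were common: at least 4589 of all 17954 probes tested had one under 0.05, in either direction. The median difference over the 15 was 0.04, beside -0.01 over all probes tested. All 15 were detected in both genotypes, so none entered through 1 genotype alone.

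The first Lyz1 probe (ILMN_1247933) read 7.55, 7.43 and 7.39 in mutant and 7.03, 6.98 and 7.01 in WT. The genotypes did not overlap, and the spread within each was small beside the gap. This probe was 1.37-fold higher (0.45 ± 0.08, limma adjusted p = 0.0206).
The second Lyz1 probe (ILMN_2736867) read 6.72, 7.01 and 6.93 in mutant and 6.35, 6.18 and 6.37 in WT. Again every mutant array lay above every WT array, and the probe was higher (0.59 ± 0.10, limma adjusted p = 0.0231).
The third Lyz1 probe (ILMN_2878071), by far the brightest of the 3 with non-normalized intensities of 6477 to 7447 in mutant and 6524 to 6664 in WT, did not pass. It read 12.75, 12.81 and 12.64 in mutant and 12.64, 12.66 and 12.67 in WT, which overlap (0.08 ± 0.08, 95% interval -0.10 to 0.26, limma adjusted p = 0.575).

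Lyz2 did not pass with any of its 3 probes. Its brightest probe (ILMN_1252076) read 11.10, 11.19 and 11.11 in mutant and 11.10, 11.18 and 11.16 in WT. The values coincide (-0.01 ± 0.07, 95% interval -0.18 to 0.16, limma adjusted p = 0.928). The second (ILMN_2939681) read 8.40, 8.66 and 8.68 in mutant and 8.34, 8.38 and 8.86 in WT, a wide scatter in both genotypes (0.06 ± 0.16). The third (ILMN_2766780) was near background, detected on 1 mutant and 2 WT arrays (-0.36 ± 0.18).
Set against the bright Lyz1 probe on the same arrays, the 2 dim ones changed by 0.37 and 0.51 more, and against the brightest Lyz2 probe by 0.46 and 0.60 more. These pairs were chosen after the dim probes had separated the genotypes, so the gaps are a description. An exact permutation test of 3 against 3 arrays, two-sided, can give no p below 0.1, so it cannot pass the threshold.

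The rise of the dim Lyz1 probes held its direction in every alternative run, from 0.24 to 0.62 for the first and 0.25 to 0.77 for the second, and both passed under every change of background, scaling or filter. Leaving out any single array put the first above the threshold (adjusted p = 0.0522 to 0.0708), and the second stayed below it only without Ndst1_SMKO replicate 1 (0.0345, otherwise 0.0572 to 0.0772), while the count over all probes fell to between 404 and 532.

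**Figure D1:**
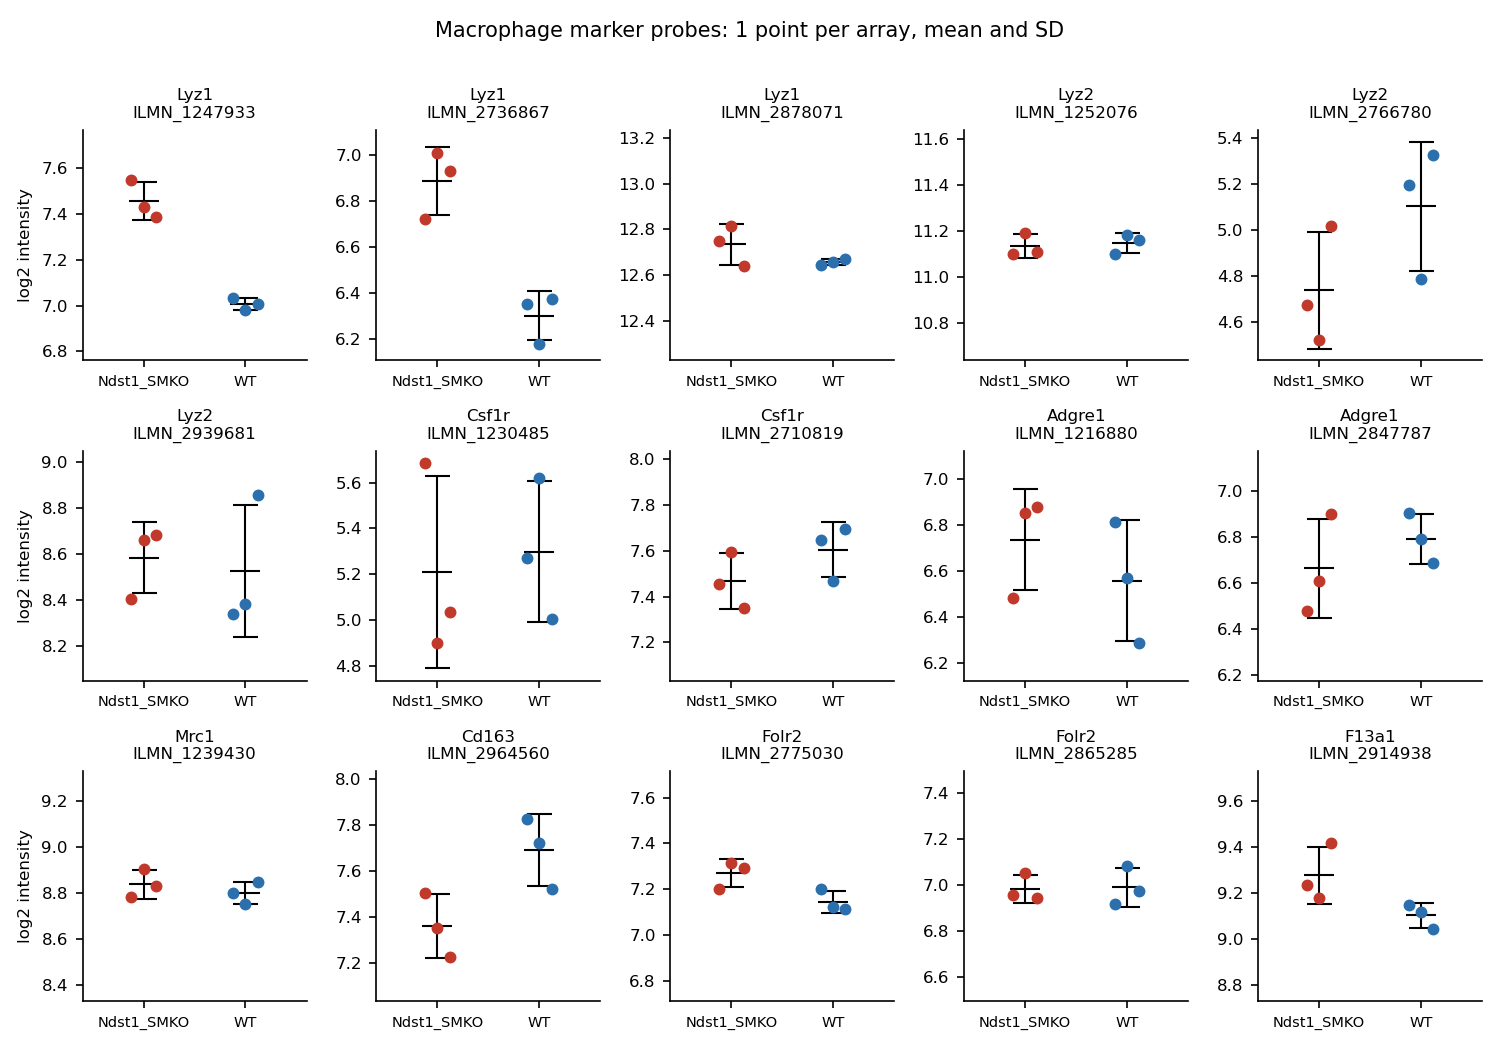
Normalized log2 intensity of the 15 tested probes of the macrophage markers, 1 point per array, mutant (Ndst1_SMKO) left and WT right, with the mean and SD as bars. The first 2 panels, the dim Lyz1 probes, separate the genotypes, the bright Lyz1 probe and the Lyz2 probes do not, and axes differ between panels but span at least 1 log2 unit.

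Csf1r encodes the receptor for CSF1 and interleukin 34 on which macrophages depend. Its brighter probe (ILMN_2710819) read 7.46, 7.59 and 7.35 in mutant and 7.65, 7.47 and 7.70 in WT. The genotypes overlap (-0.14 ± 0.10, 95% interval -0.37 to 0.10, limma adjusted p = 0.436). Its dimmer probe scattered between 4.90 and 5.68 in mutant and between 5.01 and 5.62 in WT (-0.09 ± 0.24). The interval of the dimmer probe, -0.65 to 0.47, leaves room for a change of either sign.

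Adgre1 encodes an adhesion receptor long used to stain mouse macrophages. The probe ILMN_1216880 read 6.48, 6.85 and 6.88 in mutant and 6.81, 6.57 and 6.29 in WT (0.18 ± 0.16). The probe ILMN_2847787 read 6.48, 6.61 and 6.90 in mutant and 6.90, 6.79 and 6.68 in WT (-0.13 ± 0.12). The 2 probes leaned in opposite directions, both with overlapping genotypes and adjusted p-values of 0.538 and 0.561, and the third probe was detected on 1 array of each genotype and was not tested.

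Among the resident markers none passed. Mrc1 encodes the mannose receptor CD206, an endocytic receptor of tissue macrophages. It read 8.78, 8.90 and 8.83 in mutant and 8.80, 8.75 and 8.85 in WT. The genotypes overlap and the interval is narrow (0.04 ± 0.07, 95% interval -0.14 to 0.21, limma adjusted p = 0.793).

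Cd163, the scavenger receptor for haemoglobin bound to haptoglobin, gave the only reading below WT in which the genotypes did not overlap, as 16.3% of all probes did in that direction. Its probe (ILMN_2964560) read 7.50, 7.35 and 7.22 in mutant and 7.83, 7.72 and 7.52 in WT. The highest mutant array lay just under the lowest WT array. The difference did not pass (-0.33 ± 0.11, 95% interval -0.60 to -0.06, limma adjusted p = 0.123), but it did under 3 alternatives: without background correction (-0.20, adjusted p = 0.0240), with trended and robust variances (-0.33, 0.0300) and in the authors' processed table (-0.20, 0.0262). A second Cd163 probe was detected on no array.

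Folr2, a folate receptor of resident macrophages, had its first probe (ILMN_2775030) at 7.20, 7.32 and 7.29 in mutant and 7.20, 7.12 and 7.11 in WT, with the lowest mutant array and the highest WT array almost level. The difference did not pass (0.13 ± 0.07, limma adjusted p = 0.336). Its second probe (ILMN_2865285) read 6.95, 7.05 and 6.94 in mutant and 6.92, 7.08 and 6.97 in WT, so the genotypes coincide (-0.01 ± 0.08).
F13a1 encodes the A subunit of clotting factor XIII, which crosslinks fibrin and is also made by platelet precursors. It read 9.24, 9.18 and 9.42 in mutant and 9.15, 9.12 and 9.04 in WT. The genotypes did not overlap, yet the difference did not pass (0.17 ± 0.09, 95% interval -0.04 to 0.38, limma adjusted p = 0.274).

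**Figure D2:**
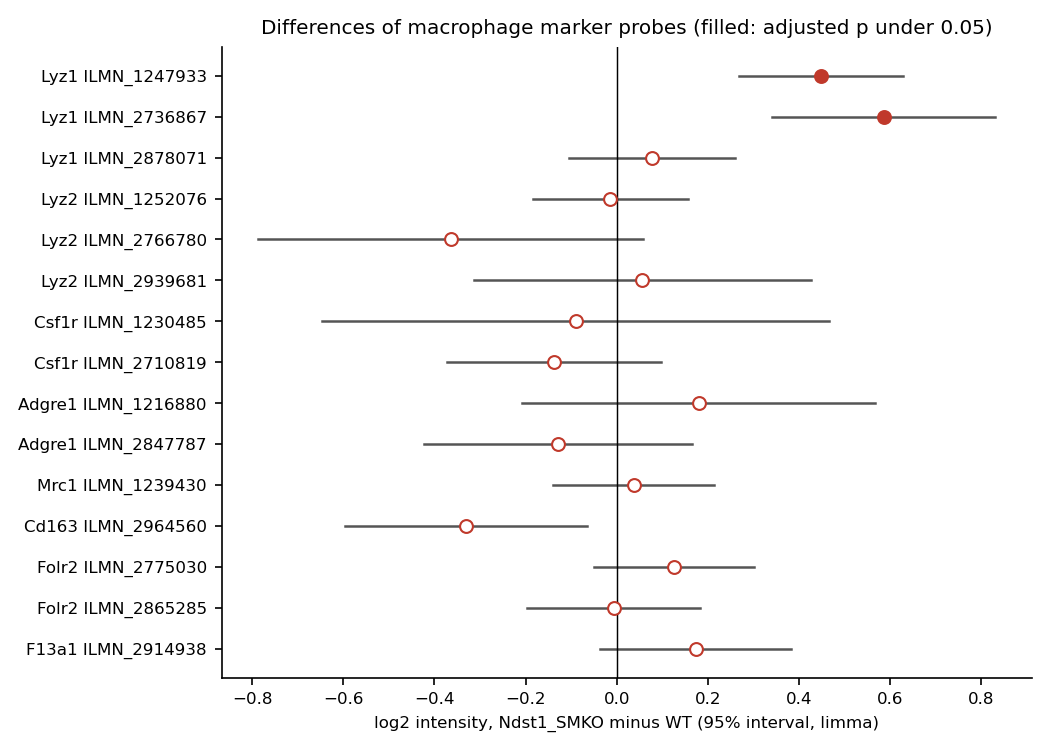
Difference in log2 intensity, mutant (Ndst1_SMKO) minus WT, for the 15 tested marker probes, with limma's 95% interval as lines. Filled points passed an adjusted p of 0.05, which holds for 2 Lyz1 probes, while the interval of Cd163 lies below 0 before adjustment only.

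The scaling between arrays mattered for several markers. In the non-normalized intensities, 6 of the 15 probes were higher on every mutant array, as were 32.9% of all probes, and none was lower on every mutant array, against 5.80% of all probes. After quantile normalization 4 were higher (16.1% of all probes) and 1 was lower (16.3%), 5 in all against 32.4% of all probes. Mrc1 shows the shift: its non-normalized intensity was 565, 622 and 599 in mutant and 526, 525 and 551 in WT, apart before scaling and overlapping after it. Without scaling between arrays the median of all probes stood at 0.13, and that of the marker probes at 0.18. The first Folr2 probe passed there (0.30, adjusted p = 0.0424), on top of that shift.

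**Figure D3:**
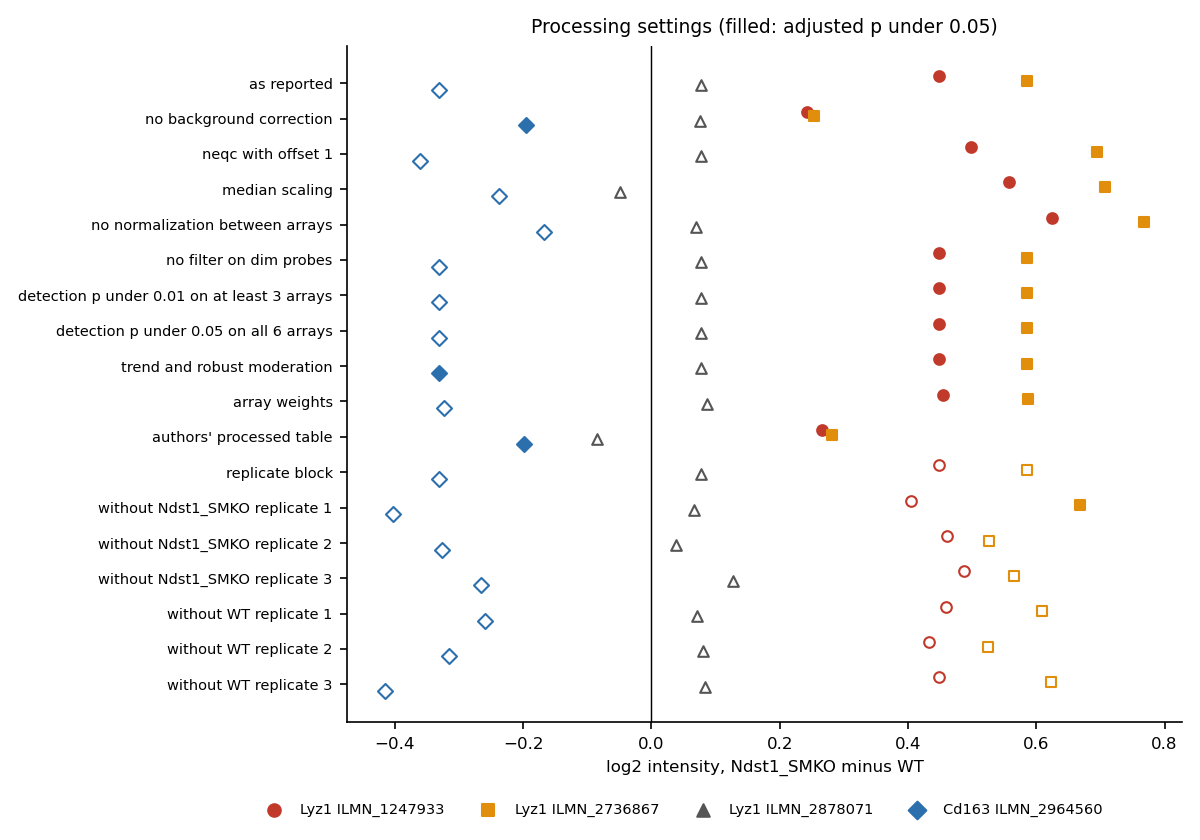
Difference in log2 intensity, mutant (Ndst1_SMKO) minus WT, of the 3 Lyz1 probes and of Cd163 under each processing setting. Filled symbols passed an adjusted p of 0.05: both dim Lyz1 probes do so under all settings that keep 6 arrays and use no replicate block, the bright Lyz1 probe under none, and Cd163 under 3.

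Beyond the markers, 8 lists of genes of macrophages, monocytes and dendritic cells were read, each gene by its brightest tested probe. Of 133 listed genes 128 were named and 96 tested, of which 6 rose and 4 fell, against 4.61% and 2.74% of the 10076 genes tested. Their median difference was 0.07, beside 0.01 over all genes. Among the genes that rose, Chil3 was detected in mutant only and so entered the test through the mutant arrays alone.

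Of 18 tested genes shared by macrophages and phagocytes 2 rose and none fell, and at an unadjusted limma p under 0.05 these were 8 and 2. Over all probes, in either direction, at least 4589 of 17954 had an unadjusted p as low. The count of higher genes was 8 without scaling between arrays, and 1 with any array left out. Of all probes, in either direction, 15.1% and 2.25% to 2.96% passed in these runs, against 7.44% in the fit reported. Cd52, a small surface glycoprotein of lymphocytes and monocytes, read 8.94, 8.93 and 9.03 in mutant and 8.44, 8.41 and 8.49 in WT. The arrays of each genotype lay within a narrow band well apart (0.52 ± 0.07, limma adjusted p = 0.0109), and its other probe stood at 0.61 without passing. Coro1a, an actin regulator of all leukocytes, also rose (0.38 ± 0.09, limma adjusted p = 0.0468), with 1 of its 3 other probes (0.39), but lost the threshold under 10 of 17 alternatives. Cd53 (0.35) and the galectin Lgals3 (0.25) did not pass. The list had a median of 0.19 (0.08 without background correction, 0.32 without scaling between arrays), with 14 differences above 0 and 4 below. The lowest of the list did not pass either (chosen after seeing their values): the lipid receptor Trem2 (-0.52 ± 0.21, overlapping genotypes) and the protease Ctss (-0.37 ± 0.13, with every mutant array below every WT array, as for 16.1% of all genes). Both were dim: Trem2 had non-normalized intensities of 136 to 168 and was detected on 1 mutant and 3 WT arrays. Those of Ctss were 143 to 162, and the genotypes overlap there. Itgam, Itgb2 and Cybb were detected on no array.

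Of 19 tested genes of resident macrophages 2 fell and none rose, and at an unadjusted limma p under 0.05 these were 2 and 2. At least 4589 of all 17954 probes lay under 0.05 in the same way. Wfdc17, a secreted protein of macrophages, read 6.59, 6.67 and 7.05 in mutant and 7.73, 7.65 and 7.97 in WT. It was 2.02-fold lower (-1.02 ± 0.15, limma adjusted p = 0.0125), and without Ndst1_SMKO replicate 2, 1 of 17 alternatives, it lost the threshold (adjusted p = 0.0533). Ltc4s, which makes leukotriene C4 in macrophages and mast cells, read 7.30, 7.42 and 7.30 in mutant and 7.77, 7.82 and 7.91 in WT (-0.49 ± 0.08, limma adjusted p = 0.0172). Ltc4s lost the threshold under 6 of 17 alternatives, among them median scaling.
The list median was 0.01, and over its 19 genes 2 were higher and 3 lower on every mutant array than on any WT array, beside 18% and 16.1% of all genes. Lyve1, a hyaluronan receptor of adventitial macrophages and of lymphatic endothelium, stood at 0.37 ± 0.11 (adjusted p = 0.0830) and Gas6, a ligand of receptors that clear dead cells, at 0.27 ± 0.08 (adjusted p = 0.0853). The third lower gene was the selenium carrier Selenop (-0.18 ± 0.08, adjusted p = 0.208). Among genes with overlapping genotypes were the complement genes C1qa (-0.12 ± 0.09), C1qb (0.08 ± 0.12) and C1qc (0.02 ± 0.09) and the scavenger gene Fcna (-0.20 ± 0.11). Selenop, Fcna and the complement genes were chosen after their values were seen.

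Monocyte genes gave few readings. Ccr2, the receptor that draws monocytes from the blood, was detected on no array with either of its probes. Ly6c1, a close relative of Ly6c2 that endothelium also expresses, was chosen after its values were seen. It read 11.03, 10.87 and 10.82 in mutant and 10.92, 10.82 and 10.78 in WT, which overlap (0.07 ± 0.09). Of 10 tested genes 1 rose and 1 fell, with a median of 0.03. Chil3, a chitinase-like protein of monocytes, neutrophils and alveolar macrophages, was detected on all 3 mutant arrays and no WT array and was at least 1.14-fold higher (limma adjusted p = 0.0443), a call that held in 3 of 15 alternatives. It passed the detection filter through the mutant arrays alone, here and in every other list that holds it, so the filter and the test used the same high values. Hp, haptoglobin, an acute phase protein of liver, fat and neutrophils, fell (-0.97 ± 0.09, limma adjusted p = 0.00219). Plac8 (0.50 ± 0.14) and Ace (0.27 ± 0.09) did not pass.

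**Figure D4:**
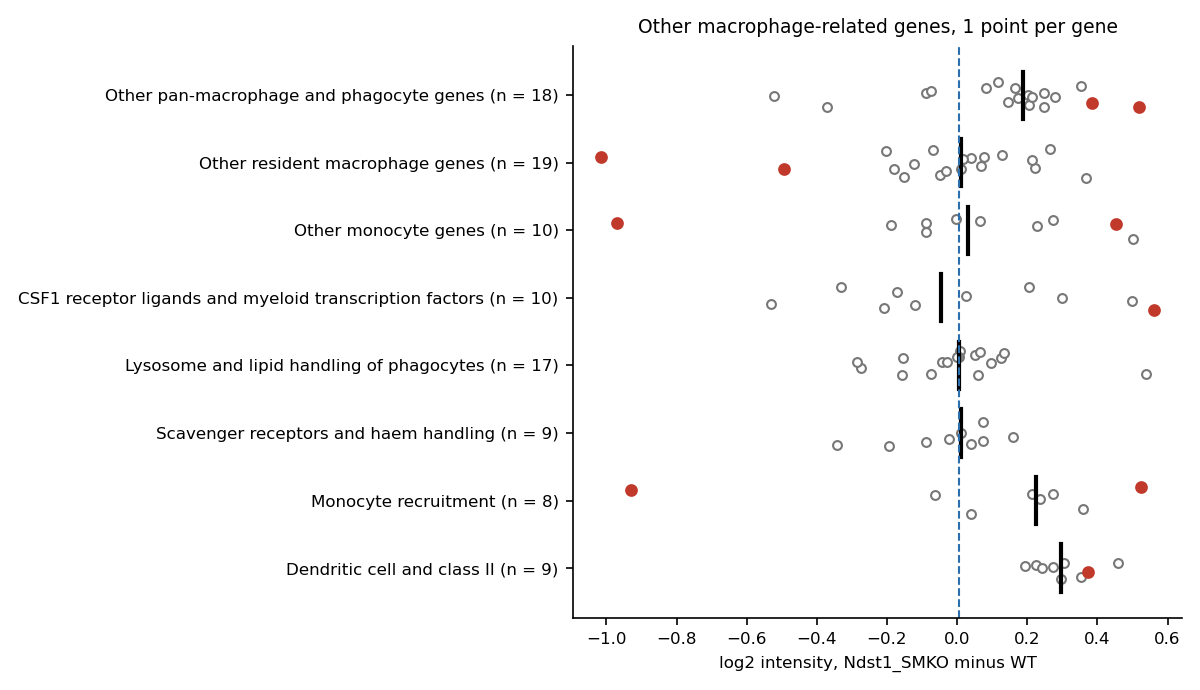
Difference in log2 intensity, mutant (Ndst1_SMKO) minus WT, of each tested gene in 8 lists of macrophage-related genes, with the number of genes beside each list. Filled points passed an adjusted p of 0.05, thick lines are list medians (from -0.05 to 0.29), and the dashed line is the median over all genes.

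On the side of growth factors and transcription factors, Csf1 rose. It encodes the ligand of the CSF1 receptor and is made largely by stromal cells. Csf1 read 6.10, 6.12 and 6.20 in mutant and 5.53, 5.79 and 5.40 in WT, without overlap (0.56 ± 0.11, limma adjusted p = 0.0314). Read by the brightest probe of each gene, Csf1 was the only one of 10 tested genes of this list that passed (median -0.05). Csf1 lost the threshold under 7 of 17 alternatives. The transcription factor gene Id2 did not pass by its brightest probe (0.50, limma adjusted p = 0.110). A dimmer Id2 probe (ILMN_1236868) was higher without overlap (1.24 ± 0.08, limma adjusted p = 0.000318), and another (ILMN_2887239) stood at 0.31 without passing. Il34, the second ligand, stood at -0.53 ± 0.23 with overlapping genotypes, chosen after its values were seen, and Cebpb, a factor of inflammatory gene expression, at -0.33 ± 0.08 (adjusted p = 0.0566). Spi1, which encodes PU.1, was detected on 1 WT array and was not tested.

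In digestion, lipid handling and scavenging by macrophages, none of 17 lysosomal and lipid genes (median 0.01) and none of 9 scavenger receptor and haem genes (median 0.01) was past the threshold by limma; at an unadjusted p under 0.05 these were 2, both lower, and 0. The lysosomal and lipid count depended on the processing: 2 were lower without background correction, 2 with trended and robust variances, 1 among probes detected on all 6 arrays and 5 in the authors' processed table, and 0 under the other alternatives. Of all probes, in either direction, 17.5%, 17.2%, 11.8% and 19.5% passed in the runs with calls, against 7.44% in the fit reported. Its genes of smallest p were the lipid carrier Apoe (-0.28 ± 0.08, adjusted p = 0.0730, past the threshold in 4 of 17 alternatives) and the protease Ctsz (-0.29 ± 0.10, adjusted p = 0.131, past it in 3). In the scavenger list, with 0 under every alternative, the iron exporter Slc40a1 came first (-0.20 ± 0.08, adjusted p = 0.201), while Mertk, a receptor for dead cells, stood at -0.09 ± 0.07.

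Among 8 tested genes that recruit monocytes, 1 fell and 1 rose, with a median of 0.23. The chemokine Ccl8 read 6.17, 6.14 and 6.29 in mutant and 7.07, 7.03 and 7.30 in WT, 1.91-fold lower (-0.93 ± 0.10, limma adjusted p = 0.00341), and passed under all 17 alternatives. The monocyte chemokine Ccl12 read 5.90, 5.70 and 5.73 in mutant and 5.38, 5.14 and 5.23 in WT (0.53 ± 0.10, limma adjusted p = 0.0264). Ccl12 lost the threshold under 8 alternatives, and its other probe stood at 0.29. The adhesion molecules Vcam1 (0.27 ± 0.10) and Icam1 (0.36 ± 0.14) did not pass.
Of 9 tested dendritic cell and class II genes, all had a difference above 0 (0.19 to 0.46, median 0.29), 1 passed, and 6 had an unadjusted limma p under 0.05. Over all probes, in either direction, at least 4589 of 17954 had one as low. The count of class II and dendritic cell genes that passed was 5 without background correction, 6 without scaling between arrays, 5 with trended and robust variances and 4 in the authors' processed table, against 0 with any array left out or without the filter. Of all probes, in either direction, 17.5%, 15.1%, 17.2% and 19.5% passed in the runs with more calls, against 7.44% in the fit reported. With an array left out 2.25% to 2.96% passed, and 1.59% without the filter. Its other probes did not pass: ILMN_2631423 stood at 0.31 (limma adjusted p = 0.0508) and ILMN_2913716 at 0.23 with overlapping genotypes, for the class II gene H2-Ab1. H2-Ab1, a chain of the class II molecule that presents antigen, read by its brightest probe 10.71, 10.61 and 10.60 in mutant and 10.30, 10.30 and 10.21 in WT (0.37 ± 0.07, limma adjusted p = 0.0331). It lost the threshold under 9 of 17 alternatives, median scaling and each left-out array among them, and its partner H2-Aa (0.46 ± 0.15) and the invariant chain Cd74 (0.23 ± 0.07) did not pass.

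**Figure D5:**
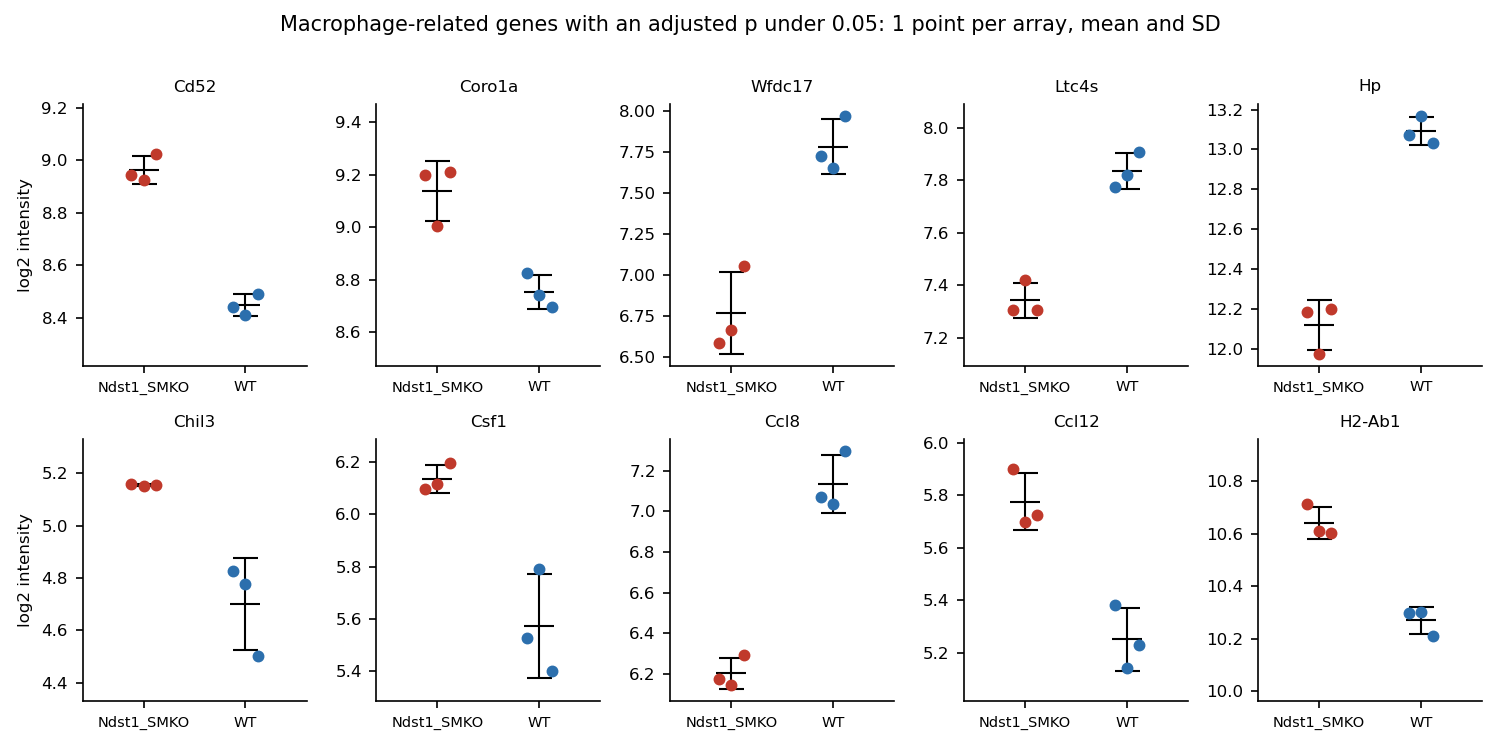
Normalized log2 intensity of the 10 macrophage-related genes outside the markers that passed an adjusted p of 0.05, 1 point per array, mutant (Ndst1_SMKO) left and WT right, with mean and SD. The genotypes do not overlap in any panel: Cd52, Coro1a, Chil3, Csf1, Ccl12 and H2-Ab1 are higher in mutant, and Wfdc17, Ltc4s, Hp and Ccl8 are lower.

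Some genes of other cell types that make these transcripts also passed, beside 4.61% of all genes tested higher and 2.74% lower. Neutrophils express lysozyme and Chil3: of 11 tested neutrophil genes 6 rose and 1 fell, with S100a8 at 1.40 ± 0.08 and Lcn2 at -1.84 ± 0.10. Of those that rose, Camp, Ngp and Chil3 were detected on no WT array and so entered the test through the mutant arrays alone. Among genes detected on all 6 arrays, 5 were tested, of which 3 rose and 1 fell. The summed normalized intensity of all 11 genes was 1702 to 1734 in mutant and 1109 to 1151 in WT. This sum includes Camp, Ngp and Chil3, so it is a description only. Lung also holds lysozyme-rich cells. Of 6 tested lung epithelium genes 2 rose, the airway protein Scgb1a1 (2.38 ± 0.07) and Hopx (0.60, limma adjusted p = 0.0181), and 1 fell, Cyp2f2 (-0.68, limma adjusted p = 0.0289). The sums were 1352 to 1376 in mutant and 623 to 728 in WT, while the alveolar genes Sftpc and Sftpa1 were detected on no array. Of 5 tested alveolar macrophage genes Chil3, which the monocyte and neutrophil lists hold too, rose and Car4 fell (8427 to 8940 in mutant and 9022 to 9769 in WT), and the defining genes Marco and Siglecf were detected on no array. Of 17 alternatives, Car4 lost the threshold under 11, Cyp2f2 under 7 and Hopx under 6. The part of neutrophils and lung cells in the readings of Lyz1, Cd52 and Chil3 was not tested.

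Stromal and vascular cells express Csf1 and Ly6c1. Of 14 tested adventitial fibroblast genes 8 rose (sums 28338 to 29050 in mutant and 21996 to 22410 in WT), a count of 12 with trended and robust variances and of 1 to 3 with an array left out. Of all probes, in either direction, 17.2% and 2.25% to 2.96% passed in these runs. In the fit reported, 4.61% of all genes tested were higher and 2.74% lower. Of 13 endothelial genes 2 rose, the junction gene Cldn5 (0.51 ± 0.07) and Vwf (0.45 ± 0.09), with sums of 11572 to 12101 in mutant and 10141 to 10683 in WT. Vwf lost the threshold under 9 of 17 alternatives and Cldn5 under 3. Mast cells, which express Ltc4s, had 2 of 6 tested genes higher, Kit (0.63 ± 0.08) and Tpsb2 (0.31 ± 0.07), with sums of 1044 to 1142 in mutant and 802 to 846 in WT. A dimmer Kit probe (ILMN_1216898) stood at -0.03 with overlapping genotypes, and Tpsb2 lost the threshold under 10 of 17 alternatives. T cell genes did not pass (7 tested, 0 at an unadjusted limma p under 0.05). Of 4 B and plasma cell genes Xbp1 alone rose, and it lost the threshold under 10 of 17 alternatives. Heart muscle genes rose in all 11 tested (sums 19231 to 20065 in mutant and 1734 to 1764 in WT), and of 10 adipocyte genes Pck1 fell. The part of these cell types in the readings above was not tested.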

How the data were processed

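RNA of 6 thoracic aorta samples was hybridized to 1 array each; per the labels' protocols it was extracted with Trizol and copied into biotinylated cRNA. The deposited non-normalized table holds, per the file headers, an intensity on a linear scale and a detection p-value per probe and array; the submitters' processing notes name GenomeStudio, with no step. The deposited processed table, also intensity, was scaled in a way not given in the sources used here and served as an alternative.

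With limma 3.58.1 in R 4.3.3, neqc (normexp, offset 16, quantile normalization, log2) was applied, which understates changes of dim probes. A probe was kept if 3 or more of the 6 arrays gave it a detection p-value below 0.05. The 17954 kept probes were tested by lmFit and eBayes (two-sided), and p-values were adjusted over all of them by Benjamini-Hochberg, the threshold being 0.05. The number of arrays limits the precision. Intervals are 95% and unadjusted. A list gene is its kept probe of highest mean. For genes detected in 1 genotype only, a bound is given against the higher of the probe's own value and the lowest detected value. Symbols come from the platform annotation (34885 probes with 1 gene, 18 with several, 10378 with none), 10 updated through RefSeq. Named are all members, up to 4 genes of smallest p per macrophage list with every called gene, and for other cell types up to 3 of smallest p and the brightest; exceptions are marked. Members and lists were chosen with earlier results of these data known. The steps were tested on simulated data. Alternatives changed background, scaling, filter, variances, weights, table, replicate block or left out 1 array, renormalizing the rest. Replicate numbers did not pair the samples: deviations of same-numbered samples correlated between -0.015 and 0.020.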

Additional observations from a re-analysis of the deposited data

How the results depend on the processing

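The count of 2 marker probes past the threshold was 2 or 3 under every alternative that kept all 6 arrays, except with the replicate block, and 0 to 1 when an array was left out. With the replicate number as a block, 0 marker probes, 364 of all probes and 24 list genes passed (adventitial fibroblast genes 1, phagocyte genes 0); the numbers do not pair the samples, and this fit has fewer degrees of freedom. All probes past the threshold (1336) were 3143 without background correction, 2711 without scaling between arrays, 722 without the filter, 3086 with trended and robust variances, 3493 in the authors' processed table, and 404 to 532 with an array left out. The 47 genes past the threshold over all 20 lists became 80, 78, 81 and 86 under the first, the second, the fourth and the fifth of these changes, and 24 to 30 with an array left out. The cause was not tested beyond the smaller number of arrays. Higher calls made up 58.1% of all, against 80.7% with median scaling, 88.9% without scaling and 41.5% in the authors' processed table, where the median stood at -0.01.

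Signs turned only for values that were past the threshold in neither fit. With median scaling the bright Lyz1 probe stood at -0.049 and the second Folr2 probe (ILMN_2865285) at 0.111. In the authors' processed table these were -0.084 and 0.011. Without scaling between arrays Lyz2's brightest probe stood at 0.051, the Csf1r probes at 0.031 and 0.020, Adgre1 at 0.051, the second Folr2 probe at 0.176 and Mertk at 0.057. With an array left out, the brightest Lyz2 probe ranged from -0.046 to 0.004, the second Lyz2 probe from -0.036 to 0.224, the dimmer Csf1r probe from -0.323 to 0.069 and the second Folr2 probe from -0.043 to 0.039. Probes near background, such as the dimmer Csf1r and Lyz2 ones, allow the widest range of differences.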
